A study of Mus musculus with 7 samples.

Results

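The step from 4 to 6 weeks of age was examined in mouse gastrocnemius, a hindlimb calf muscle made mostly of fast fibers, in the 2 libraries at 4 weeks and the 2 at 6 weeks of a series of 7. Members were chosen by age alone. All mice were male, of strain C57Bl6/J, and the labels give no treatment or transgene at 4 and 6 weeks. The other 3 libraries, at 8 weeks, are titled as controls (Ctl), a word that the paper's methods use for CreER-negative littermates, and whether these mice were such littermates is not stated. They entered the model to help estimate the spread between libraries and to show the later level. They also entered the choice of genes tested and the scaling of the counts. Whole muscle was frozen and its total RNA was sequenced after removal of ribosomal RNA, so nerve, vessel, tendon and blood RNA was measured with that of the fibers. The labels do not tie each library to a separate mouse, while the paper counts its replicates in mice, and p-values measure the spread between these few libraries.

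Between these ages the mouse passes from the weeks after weaning to the onset of puberty. Growing muscle adds nuclei from satellite cells, its resident stem cells, and replaces developmental forms of contractile proteins with adult forms. The connective tissue around the fibers is laid down over the same weeks, and synthesis of collagen, the main matrix protein, depends on chaperones of the endoplasmic reticulum. Fiber size is set by the balance of protein synthesis and breakdown, in which ubiquitin ligases select the proteins to be degraded.

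The 4 libraries held 31448537 to 36061407 counts. From 28.6% to 37.1% of these came from mt-Rnr2, a ribosomal RNA of mitochondria, and mt-Rnr2, mt-Rnr1, Ttn, Myh4 and Neb together gave 52.7% to 56.2%. Levels are given as CPM, counts relative to a library total scaled by a TMM factor, which adjusts for composition. Markers of fast skeletal muscle were abundant in every library. Ckm, the muscle creatine kinase, stood at 10182 and 10592 CPM at 4 weeks and 10515 and 11276 CPM at 6 weeks, and the fast myosin Myh4 at 25464 and 29647 CPM at 4 weeks and 31291 and 30728 CPM at 6 weeks. Counts of the liver gene Alb were 0 to 4 and those of the glial gene Gfap 0 to 1 in these libraries. Across genes, the correlation of log2 CPM was 0.988 between replicates at each age and 0.972 to 0.980 between ages. In bulk tissue, fewer cells of a type and less RNA per cell cannot be told apart.

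Gene expression in gastrocnemius differed between 4 and 6 weeks in both directions. Called changes of more than 2-fold were mostly falls among genes under 10 CPM and near balance at higher levels. Of 14976 genes with enough counts, 471 (3.15%) were higher and 563 (3.76%) lower at 6 weeks, 1034 (6.90%) in all, by edgeR's quasi-likelihood test with an adjusted p under 0.05. Which direction held more genes depended on the setting. DESeq2's Wald test, with its own size factors, called 638 higher and 513 lower, and edgeR called 773 and 724 with no filter on low counts, 772 and 758 with a replicate block, and 184 and 144 without 6 weeks replicate 2. More than 2-fold changes were called in 98 genes that rose and 211 that fell. By level these were 19 and 71 under 1 CPM, where every called gene changed more than 2-fold, and 48 and 106 from 1 to 10 CPM. From 10 to 100 CPM they were 27 and 29, and at 100 CPM or more 4 and 5. Over all genes tested the median log2 fold change was −0.01, and the median size among called genes was 0.77. Falls were more frequent among genes of low level. Under 1 CPM, 19 genes were called higher and 71 lower, from 1 to 10 CPM 139 and 269, from 10 to 100 CPM 263 and 204, and at 100 CPM or more 50 and 19. In summed CPM the called genes that rose gained 12588 and those that fell lost 8964.

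**Figure D1:**
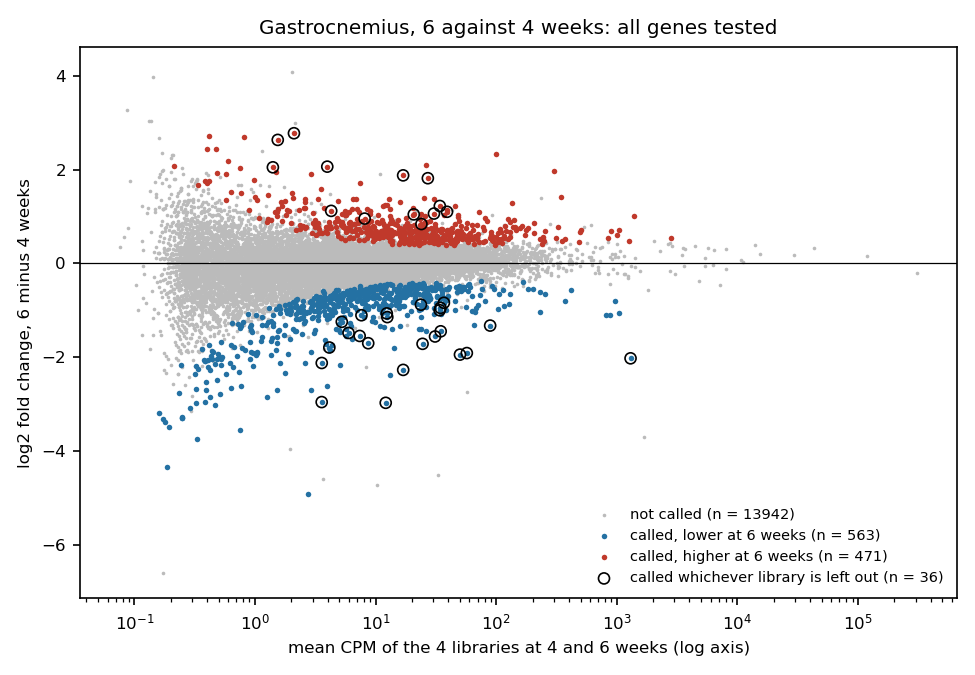
Log2 fold change (6 minus 4 weeks, y axis) of each of the 14976 genes tested against its mean CPM over the 4 libraries (log axis), with called genes in red (471 higher) and blue (563 lower) and the 36 genes called whichever library was left out in black circles. Falls are more frequent among genes of low level and rises among genes of high level.

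Most of these calls were lost in at least 1 refit that left out a 4- or 6-week library. The number called was 283 and 83 with 4 weeks replicates 1 and 2 left out in turn and 50 and 328 with 6 weeks replicates 1 and 2 left out, where the lone library of an age is assumed to vary like the other ages. Without an 8-week library it was 1024, 1156 and 1584 (replicates 1, 2 and 3). A set of 36 genes, 13 higher and 23 lower, was called in all 4 refits that lacked a 4- or 6-week library, and these are the calls that do not depend on any 1 of them. The other 998 calls were lost in at least 1 of those refits, which holds for every called gene named below that is not among the 36. With library totals in place of TMM factors 530 genes were called.

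**Figure D2:**
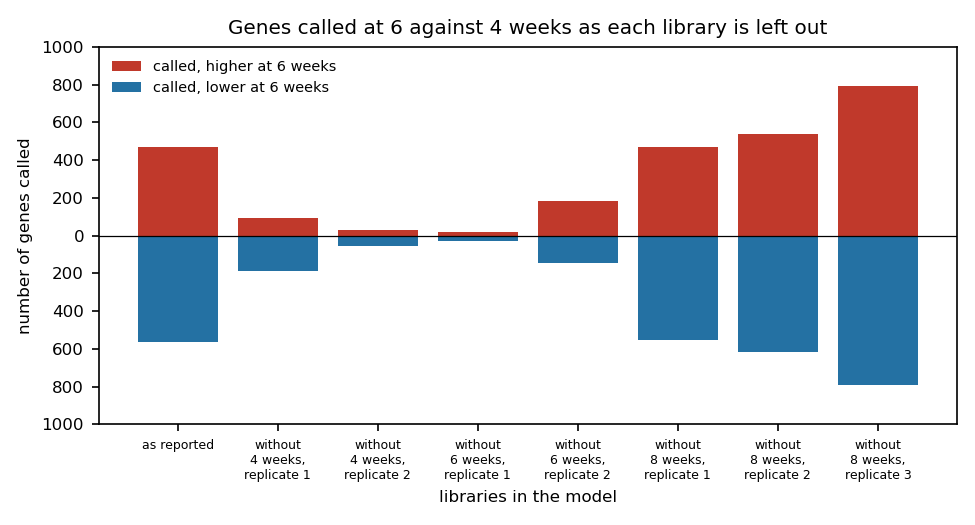
Number of genes called higher (red, upward) and lower (blue, downward) at 6 against 4 weeks with all 7 libraries and with each library left out. The count drops to 283, 83, 50 and 328 without a library of the ages compared and stays at 1024 or above without an 8-week library.

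The 13 genes that rose in every such refit included Asb15 and Asb10, subunits of ubiquitin ligases. Asb15 (chromosome 6, 24528144 to 24573164, on the GRCm38 build as all positions here), a SOCS-box adaptor that brings substrates to a ubiquitin ligase, was at 11.7 and 12.2 CPM at 4 weeks and 44.9 and 39.6 CPM at 6 weeks (log2 fold change 1.82, standard error 0.13, adjusted p = 1.97e-04). Its relative Asb10 was at 26.8 and 22.9 CPM at 4 weeks and 53 and 53.7 CPM at 6 weeks (log2 fold change 1.10, standard error 0.11, adjusted p = 0.00118). Both 6-week libraries lay above both 4-week libraries for each, as the rule for naming these genes required. Of all 14976 genes tested, 8728 (58.3%) had no overlap in CPM between these ages, in either direction. Rasd2, a Ras-like small GTPase, had the largest rise of the 13, from a low level, at 0.61 and 0.453 CPM at 4 weeks and 4.11 and 3.24 CPM at 6 weeks (log2 fold change 2.78, standard error 0.28, adjusted p = 0.00118). Tfcp2l1, a transcription factor of the CP2 family best known in kidney and pluripotent cells, was at 8.33 and 6.13 CPM at 4 weeks and 27.5 and 25.7 CPM at 6 weeks (log2 fold change 1.88, standard error 0.16, adjusted p = 5.12e-04). Cyp27a1, which hydroxylates the side chain of cholesterol, was at 18.7 and 20.7 CPM at 4 weeks and 44.2 and 38.2 CPM at 6 weeks (log2 fold change 1.06, standard error 0.12, adjusted p = 0.00277), and Nqo1, a quinone reductase, at 5.01 and 6.02 CPM at 4 weeks and 10.6 and 10.8 CPM at 6 weeks (log2 fold change 0.96, standard error 0.13, adjusted p = 0.00484). C3, the central complement component, was at 20.5 and 20.3 CPM at 4 weeks and 54.4 and 41.1 CPM at 6 weeks (log2 fold change 1.22, standard error 0.14, adjusted p = 0.00274). Otub2, a deubiquitinase, and Tns2, a tensin of cell adhesions, had log2 fold changes of 1.12 and 0.84. Others of the 13 were Odf3l2 (2.64), the unnamed transcript Gm28783 (2.05) and Amd-ps3 (2.06), a pseudogene of Amd1 whose reads may come from its parent gene.

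The 23 genes that fell in every such refit held developmental actin, smooth muscle actin, imprinted growth genes and matrix genes. Actc1 (chromosome 2, 114047282 to 114053548), the cardiac actin that immature skeletal muscle also expresses, was at 2008 and 2163 CPM at 4 weeks and 357 and 667 CPM at 6 weeks (log2 fold change −2.03, standard error 0.22, adjusted p = 0.00228) and lost more CPM than any other gene called lower. C130080G10Rik (chromosome 2, 114054335 to 114064868), a noncoding gene that lies beside Actc1, was at 22 and 21.2 CPM at 4 weeks and 1.18 and 4.21 CPM at 6 weeks (log2 fold change −2.98, standard error 0.35, adjusted p = 0.00282). These neighbors both fell, and of the 4 libraries both were lowest in 6 weeks replicate 1. Acta2, the smooth muscle actin, was at 50.7 and 50.8 CPM at 4 weeks and 16.9 and 20.3 CPM at 6 weeks (log2 fold change −1.45, standard error 0.12, adjusted p = 4.25e-04). Serpinh1, the collagen chaperone HSP47, was at 127 and 128 CPM at 4 weeks and 48.9 and 52.6 CPM at 6 weeks (log2 fold change −1.33, standard error 0.12, adjusted p = 5.12e-04). Tceal7, which restrains proliferation in cultured mouse myoblasts, was at 24.7 and 31.5 CPM at 4 weeks and 5.29 and 6.3 CPM at 6 weeks (log2 fold change −2.27, standard error 0.20, adjusted p = 5.12e-04). In Acta2 and Serpinh1 the 4-week libraries were close together. Tnfrsf12a, the receptor for the cytokine TWEAK, fell by 1.49 on the log2 scale, Gatm, the first enzyme of creatine synthesis, by 1.25, and Slc16a6, a monocarboxylate transporter, by 1.55. Tpm4, a cytoskeletal tropomyosin, had a log2 fold change of −0.95, Meox2, a homeobox factor of limb muscle, −1.07, and Pmp22, a protein of peripheral myelin, −1.0. The others were Mki67, Ccnd1, Igf2, Rian, Mest, Cdkn1c, Postn, Vcan, Col8a1, C1qtnf3, Kcne1l and the unnamed RP24-246F6.2.

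**Figure D3:**
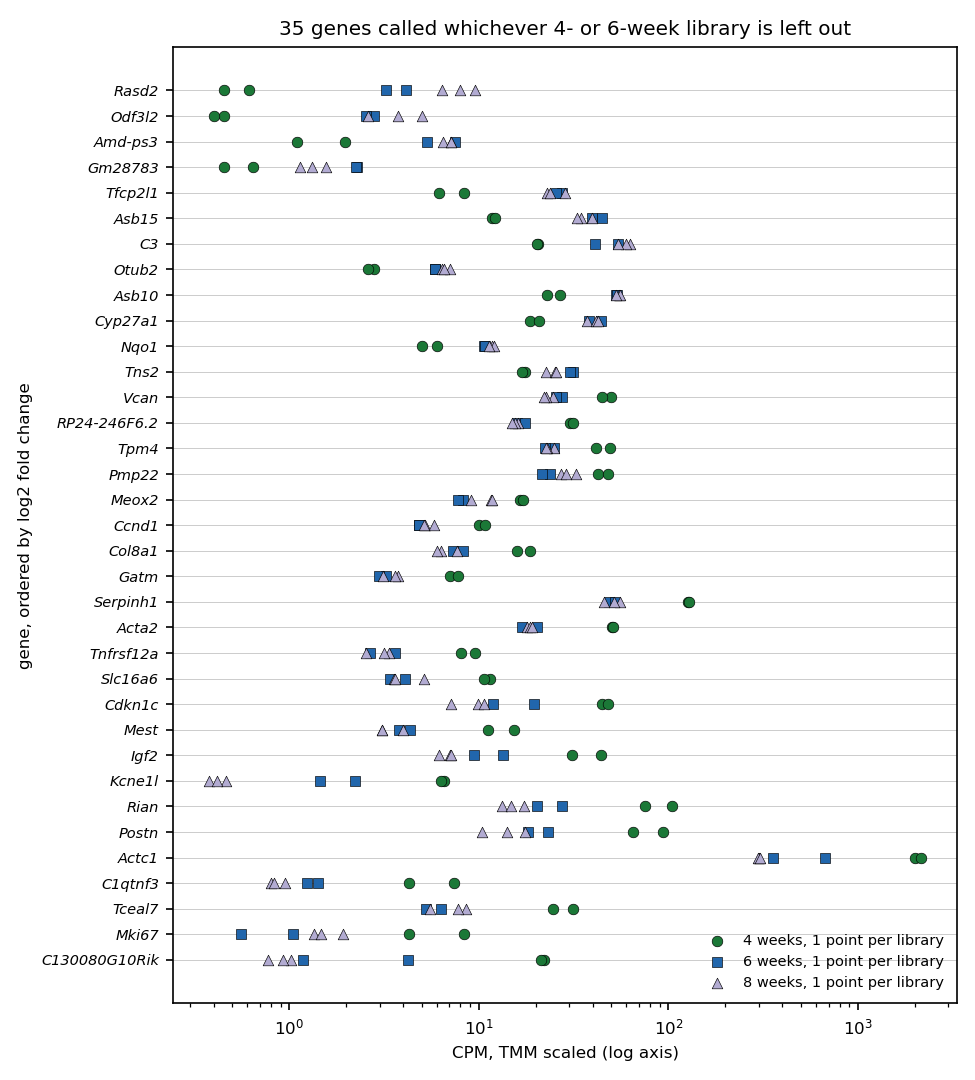
CPM on a log axis of 35 of the 36 genes called whichever 4- or 6-week library was left out, 1 point per library (4 weeks green circles, 6 weeks blue squares, 8 weeks purple triangles), ordered by log2 fold change. The 4-week points stand clear of the 6-week points in each gene, and the 8-week points of most genes lie near those at 6 weeks. Of all genes tested, 58.3% had no overlap between 4 and 6 weeks.

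Genes of dividing cells were lower at 6 weeks. Of 35 cell cycle genes tested, 13 were lower and none higher, beside 3.76% lower over all genes. Their median log2 fold change was −1.01 beside −0.01 over all genes. In a list of 44 histone cluster genes, the variant histones H2afz and H2afx and the chromatin proteins Hmgb1, Hmgb2 and Hmgn2, 15 of 49 were lower and none higher (median −0.74), and all 15 were genes of the Hist1 cluster, most of which are expressed in S phase. Lower too were 5 of 35 DNA replication genes (median −0.41). Mki67, a marker of cycling cells, was at 4.3 and 8.4 CPM at 4 weeks and 0.557 and 1.05 CPM at 6 weeks (log2 fold change −2.96, standard error 0.36, adjusted p = 0.00318). Ccna2, the cyclin of S and G2 phase, was at 0.902 and 1.89 CPM at 4 weeks and 0.124 and 0.107 CPM at 6 weeks (log2 fold change −3.56, standard error 0.51, adjusted p = 0.0053), and Top2a, a topoisomerase of dividing cells, at 3.4 and 6.69 CPM at 4 weeks and 0.495 and 1.02 CPM at 6 weeks (log2 fold change −2.71, standard error 0.42, adjusted p = 0.0075). These levels were low at both ages, with the higher value in 4 weeks replicate 2. Hist1h1b, a linker histone, was at 1.64 and 1.68 CPM at 4 weeks and 0.248 and 0.616 CPM at 6 weeks (log2 fold change −1.91, standard error 0.37, adjusted p = 0.0158), and Hells, a helicase of replicating chromatin, had a log2 fold change of −1.88. The number of cell cycle genes called lower was 12 and 3 with 4 weeks replicates 1 and 2 left out in turn and 2 and 5 with 6 weeks replicates 1 and 2 left out. For the histone list it was 6, 1, 0 and 4 with these libraries left out in the same order, and for the replication genes 1, 0, 0 and 1 with these libraries left out in the same order. Mki67 and Ccnd1 alone of these lists were called in every one of those refits. DESeq2 called 7, 8 and 2 lower in the 3 lists. With at least 10 counts required in every library edgeR called 8 cell cycle, 4 histone and 2 replication genes lower. Genes with few counts at 6 weeks could be tested because of their counts at 4 weeks, which favors falls among the members tested. Histone genes share near-identical sequence, so reads may be split among copies.

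Letters that cell cycle promoters commonly hold were present in most of those that fell. The RefSeq table (GRCm38.p6) had a promoter, 250 bases before to 50 after the start, for 11 of the 13 cell cycle genes called lower. Of these, 8 held the CHR letters TTTGAA and 9 the CCAAT letters on either strand, against 17.9% and 37.4% of all 32851 promoters in the table. The E2F letters searched (TTTGGCGC, TTTCGCGC or TTCCCGCC) were in 1 of the 11, against 2.96% of all promoters. Cell cycle genes that were not called were not searched, so these shares cannot be tied to the fall. The share of all promoters counts every start in the table, while 1 start per gene was used for the 11. The 150 bases before the start are shown for 3 of them, which were chosen after the matches were seen, with each TTTGAA and CCAAT, or its reverse complement, in capitals. All 3 lie on the minus strand and are written 5′ to 3′ in the sense of the gene.
Mki67, chr7:135716380-135716529: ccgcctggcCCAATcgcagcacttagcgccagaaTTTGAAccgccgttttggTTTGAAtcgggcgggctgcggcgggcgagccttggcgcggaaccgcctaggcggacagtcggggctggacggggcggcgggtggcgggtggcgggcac
Cdk1, chr10:69352913-69353062: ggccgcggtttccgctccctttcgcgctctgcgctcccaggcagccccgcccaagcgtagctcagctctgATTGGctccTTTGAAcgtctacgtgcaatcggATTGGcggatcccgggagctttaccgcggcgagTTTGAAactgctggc
Top2a, chr11:99024190-99024339: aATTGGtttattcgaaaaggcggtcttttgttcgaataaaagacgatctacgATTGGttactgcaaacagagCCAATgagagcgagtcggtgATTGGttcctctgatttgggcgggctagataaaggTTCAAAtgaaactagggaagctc
Within these windows Mki67 had 3 such matches, Cdk1 4 and Top2a 5. A match is a run of letters and not a shown binding site.

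Imprinted genes, many of which act on fetal and early postnatal growth, were lower in many cases, beside 3.76% lower over all genes. Of 26 tested, 12 were lower and none higher (median −0.97, range −2.19 to 2.40). The largest rise in the list was thus not called. DESeq2's Wald test called 1 higher, as did edgeR with a replicate block or without 8 weeks replicate 3. With no filter or with the 4- and 6-week libraries alone edgeR called 2 higher. Among them were noncoding RNAs of the Dlk1-Dio3 region. Rian was at 75.4 and 105 CPM at 4 weeks and 20.3 and 27.5 CPM at 6 weeks (log2 fold change −1.91, standard error 0.19, adjusted p = 0.00118), Meg3 had a log2 fold change of −1.01 and Mirg one of −1.33. Cdkn1c, an inhibitor of the cell cycle, was at 44.8 and 48.1 CPM at 4 weeks and 11.9 and 19.5 CPM at 6 weeks (log2 fold change −1.56, standard error 0.21, adjusted p = 0.00484). Mest, a hydrolase-like protein of mesoderm, was at 11.2 and 15.4 CPM at 4 weeks and 3.81 and 4.34 CPM at 6 weeks (log2 fold change −1.70, standard error 0.19, adjusted p = 0.00228), and Igf2, the fetal insulin-like growth factor, at 31.2 and 44 CPM at 4 weeks and 9.37 and 13.5 CPM at 6 weeks (log2 fold change −1.72, standard error 0.19, adjusted p = 0.00228). Each was above its 6-week values in both 4-week libraries, a lack of overlap that 58.3% of all genes tested had in either direction. H19, transcribed next to Igf2, was at 1424 and 1399.8 CPM at 4 weeks and 554 and 803 CPM at 6 weeks (log2 fold change −1.06, standard error 0.17, adjusted p = 0.00812). Imprinted genes called lower numbered 11 and 5 with 4 weeks replicates 1 and 2 left out in turn and 4 and 10 with 6 weeks replicates 1 and 2 left out, and Rian, Igf2, Mest and Cdkn1c were in all of these.

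In the wider insulin-like growth factor and growth hormone axis, 2 of 29 genes were higher and 4 lower, beside 3.15% and 3.76% of all genes. Igf1, the growth factor of postnatal muscle, was at 96.6 and 82 CPM at 4 weeks and 46.7 and 45.7 CPM at 6 weeks (log2 fold change −0.95, standard error 0.15, adjusted p = 0.00812). Stat5b, which carries the growth hormone signal, was at 75.3 and 93.1 CPM at 4 weeks and 139 and 130.3 CPM at 6 weeks (log2 fold change 0.68, standard error 0.13, adjusted p = 0.0147), and Grb14, an adaptor that dampens the insulin receptor, had a log2 fold change of 0.63. Grb10, the imprinted relative of Grb14, had one of −0.81, so the pair moved in opposite directions. Igf1 had an adjusted p of 0.0871 with 6 weeks replicate 1 left out, and Stat5b one of 0.0982, 0.141 and 0.0527 with 4 weeks replicate 1, 6 weeks replicate 1 and 6 weeks replicate 2 left out, in that order.

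Many genes of the extracellular matrix were lower at 6 weeks, beside 3.76% lower over all genes. They are a theme that the paper reports from these libraries, so their direction here is not independent of it. The same holds for calcium signaling genes that it lists, among them Ryr1, Hdac4, Hdac5, Ep300, Crebbp, Myh14, Actc1, Acta2, Myl9, Casq2 and Tpm4. It likewise lists AMPK signaling genes, among them Mtor, Tsc1, Tsc2, Eef2k, Foxo3, Ccna2 and Ccnd1. The paper also measured several matrix genes and Hdac4 by RT-qPCR in gastrocnemius and other muscles. Among 40 elastic fiber, proteoglycan and matricellular genes 19 were lower and 1 higher (median −0.60), among 26 collagen processing genes 12 lower (median −0.63), among 11 fibrillar collagens 7 lower (median −0.80), among 21 other collagens 8 lower and 1 higher, and among 33 matrix proteases and inhibitors 7 lower. Postn, a matrix protein of remodeling tissue, was at 65.2 and 93.8 CPM at 4 weeks and 18.1 and 23.1 CPM at 6 weeks (log2 fold change −1.95, standard error 0.23, adjusted p = 0.00282), and Vcan, a large proteoglycan of growing tissue, at 49.9 and 44.7 CPM at 4 weeks and 27.3 and 25.4 CPM at 6 weeks (log2 fold change −0.84, standard error 0.11, adjusted p = 0.00388). Lox, which cross-links collagen and elastin, was at 32.7 and 43.7 CPM at 4 weeks and 10.3 and 17.8 CPM at 6 weeks (log2 fold change −1.44, standard error 0.25, adjusted p = 0.0105). Elastin itself, Eln, had a log2 fold change of −1.14, and Fbn2, the fibrillin of developing elastic fibers, −2.34, while the adult fibrillin Fbn1 had one of −0.65. Timp1, an inhibitor of matrix proteases, had one of −1.91. Against this direction, Prelp, a leucine-rich proteoglycan of basement membranes, was at 12.1 and 10.3 CPM at 4 weeks and 19.6 and 15.9 CPM at 6 weeks (log2 fold change 0.66, standard error 0.14, adjusted p = 0.0192), and Col7a1, the anchoring-fibril collagen, at 2.1 and 1.41 CPM at 4 weeks and 5.91 and 4.61 CPM at 6 weeks (log2 fold change 1.58, standard error 0.24, adjusted p = 0.00703).

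The matrix counts changed as single libraries were left out, while the list medians kept their sign. Of the elastic fiber, proteoglycan and matricellular list, the number lower was 12 and 2 with 4 weeks replicates 1 and 2 left out in turn and 2 and 12 with 6 weeks replicates 1 and 2 left out. Of the processing genes it was 4, 1, 1 and 5 with these libraries left out in the same order, and of the fibrillar collagens 4, 0, 0 and 5 with these libraries left out in the same order. Postn, Vcan, Serpinh1 and Col8a1 were called in each case. In the same refits the median log2 fold change ran from −0.74 to −0.49 in the elastic fiber, proteoglycan and matricellular list, from −0.64 to −0.50 in the processing list and from −0.99 to −0.62 in the fibrillar collagens. Among fibroblast and fibro-adipogenic progenitor genes, markers of the main matrix-making cells, 2 of 19 were higher and 3 lower (median −0.13). Over all genes 3.15% were higher and 3.76% lower. The summed fibroblast level was 1259 and 1321 CPM at 4 weeks and 1423 and 1436 CPM at 6 weeks, although 11 of the 19 had a negative log2 fold change. Mfap5, Lum and Dcn of this list also belong to the elastic fiber, proteoglycan and matricellular list, and Col15a1 and Lamc3 to the basement membrane list. Basement membrane genes were 1 higher and 4 lower of 22 (median −0.10). Of 13 markers of tenocytes, the cells of tendon, 6 were lower and none higher, but 6 of the 13, and 3 of those lower, also belong to the elastic fiber, proteoglycan and matricellular list. Their summed level was 319.6 and 391 CPM at 4 weeks and 223 and 254 CPM at 6 weeks, and the defining marker Tnmd was at 30.7 and 37.8 CPM at 4 weeks and 9.87 and 16.1 CPM at 6 weeks. The part of these cell types in the matrix result was not tested.

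Chaperones and folding enzymes of the endoplasmic reticulum were lower at 6 weeks in 10 of 27 cases and higher in none (median −0.39, range −1.33 to 0.54). Over all genes 3.76% were lower. Hspa5, the chaperone BiP, was at 136 and 137 CPM at 4 weeks and 89.5 and 95.8 CPM at 6 weeks (log2 fold change −0.56, standard error 0.11, adjusted p = 0.0173), and Hsp90b1, which folds secreted proteins, at 93.9 and 86.3 CPM at 4 weeks and 60.5 and 62.9 CPM at 6 weeks (log2 fold change −0.55, standard error 0.11, adjusted p = 0.0191). Disulfide isomerases were lower as well, with log2 fold changes of −0.72 in Pdia3, −0.73 in Pdia4 and −0.74 in Pdia6. Manf, a secreted protein of the stress response of this compartment, was at 7.64 and 7.76 CPM at 4 weeks and 4.42 and 4.88 CPM at 6 weeks (log2 fold change −0.73, standard error 0.13, adjusted p = 0.0133). Apart from Serpinh1, these were falls of less than 2-fold with 4-week libraries near each other. Serpinh1 and Fkbp10 also belong to the collagen processing list, and Fkbp10 had a log2 fold change of −0.70. The number called lower was 3 and 1 with 4 weeks replicates 1 and 2 left out in turn and 1 and 2 with 6 weeks replicates 1 and 2 left out, and Serpinh1 was the gene called in every case.

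Endothelial genes were lower in 9 of 23 and higher in none (median −0.44), beside 3.76% lower over all genes. The summed level of the list was 567 and 612 CPM at 4 weeks and 455 and 455 CPM at 6 weeks. Apln, a peptide of sprouting endothelium, was at 3.02 and 5.47 CPM at 4 weeks and 0.866 and 1.07 CPM at 6 weeks (log2 fold change −2.12, standard error 0.31, adjusted p = 0.0058), and its receptor gene Aplnr at 18.5 and 21.5 CPM at 4 weeks and 8.88 and 6.24 CPM at 6 weeks (log2 fold change −1.41, standard error 0.22, adjusted p = 0.00726). Pecam1, an adhesion molecule of all endothelium, was at 50.3 and 64.7 CPM at 4 weeks and 32.2 and 34.2 CPM at 6 weeks (log2 fold change −0.79, standard error 0.13, adjusted p = 0.0093), and Kdr, the main VEGF receptor, had a log2 fold change of −0.80. The apelin pair had larger fold changes than the general markers Pecam1 and Cdh5 (−0.44), a difference that was not tested. The number called lower was 3 and 1 with 4 weeks replicates 1 and 2 left out in turn and 1 and 3 with 6 weeks replicates 1 and 2 left out. In smooth muscle and pericytes 2 of 16 genes were lower, Acta2 and the myosin light chain Myl9 (−1.11), and 2 higher, Smtn (0.49) and Des, which fibers also express.

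Of 30 antigen presentation and interferon genes 4 were higher and 1 lower, beside 3.15% and 3.76% of all genes, with a median close to 0 (−0.0029). The 4, picked out after their values were seen, all serve class II antigen presentation, and none was called in every refit that lacked a 4- or 6-week library. Ciita, the activator of class II genes, did not pass (log2 fold change 0.99, adjusted p = 0.157 by edgeR). The invariant chain Cd74 was at 9.13 and 5.63 CPM at 4 weeks and 20.9 and 14.3 CPM at 6 weeks (log2 fold change 1.25, standard error 0.23, adjusted p = 0.0136), and the class II chain H2-Ab1 at 5.36 and 4.21 CPM at 4 weeks and 10.2 and 8.41 CPM at 6 weeks (log2 fold change 0.96, standard error 0.18, adjusted p = 0.0155). H2-Eb1 and H2-Aa had log2 fold changes of 1.09 and 0.87. All 4 were at their highest of the 4 libraries in 6 weeks replicate 1. The interferon-induced Bst2 had a log2 fold change of −0.81. The number higher in the list was 2 and 0 with 4 weeks replicates 1 and 2 left out in turn and 0 and 4 with 6 weeks replicates 1 and 2 left out. Of 20 macrophage markers, cells that carry class II molecules, none was higher and 2 were lower, Mrc1 (−0.74) and Lyve1 (−0.56), and the summed macrophage level was 173 and 187 CPM at 4 weeks and 136 and 149.8 CPM at 6 weeks. Only 2 of the 21 lymphocyte and neutrophil genes, Ighm and Cd4, had enough counts to be tested. Neither passed by edgeR, both had an unadjusted p under 0.05, and limma-voom called neither while DESeq2 called Ighm. Ighm, the heavy chain of IgM made by B cells, which carry class II molecules, was at 15.8 and 10.2 CPM at 4 weeks and 24.2 and 19.3 CPM at 6 weeks (log2 fold change 0.74, standard error 0.22, adjusted p = 0.0643), with an adjusted p of 0.00883 by DESeq2 and of 0.0483 by edgeR without 4 weeks replicate 1. Which cells carried the class II RNA was not tested.

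Among other cell types, 2 of 14 Schwann cell genes were lower, among them Pmp22 of peripheral myelin, beside 3.76% lower over all genes. The Schwann cell list summed to 93.3 and 95.7 CPM at 4 weeks and 60.7 and 48.6 CPM at 6 weeks. Pmp22 was at 42.8 and 47.8 CPM at 4 weeks and 23.9 and 21.4 CPM at 6 weeks (log2 fold change −1.0, standard error 0.12, adjusted p = 0.00319). Erythroid genes were lower in 3 of 7, with a summed level of 165 and 138 CPM at 4 weeks and 71.9 and 102 CPM at 6 weeks and log2 fold changes of −1.04 in Alas2, which starts heme synthesis, and −0.90 in the globin Hbb-bs. None of 12 adipocyte genes passed in edgeR, where 3 had an unadjusted p under 0.05, or in limma-voom, and DESeq2 called 1 higher and 1 lower. In edgeR 2 were higher and 1 lower with the 4- and 6-week libraries alone, with a replicate block, with no filter or without 8 weeks replicate 3.

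**Figure D4:**
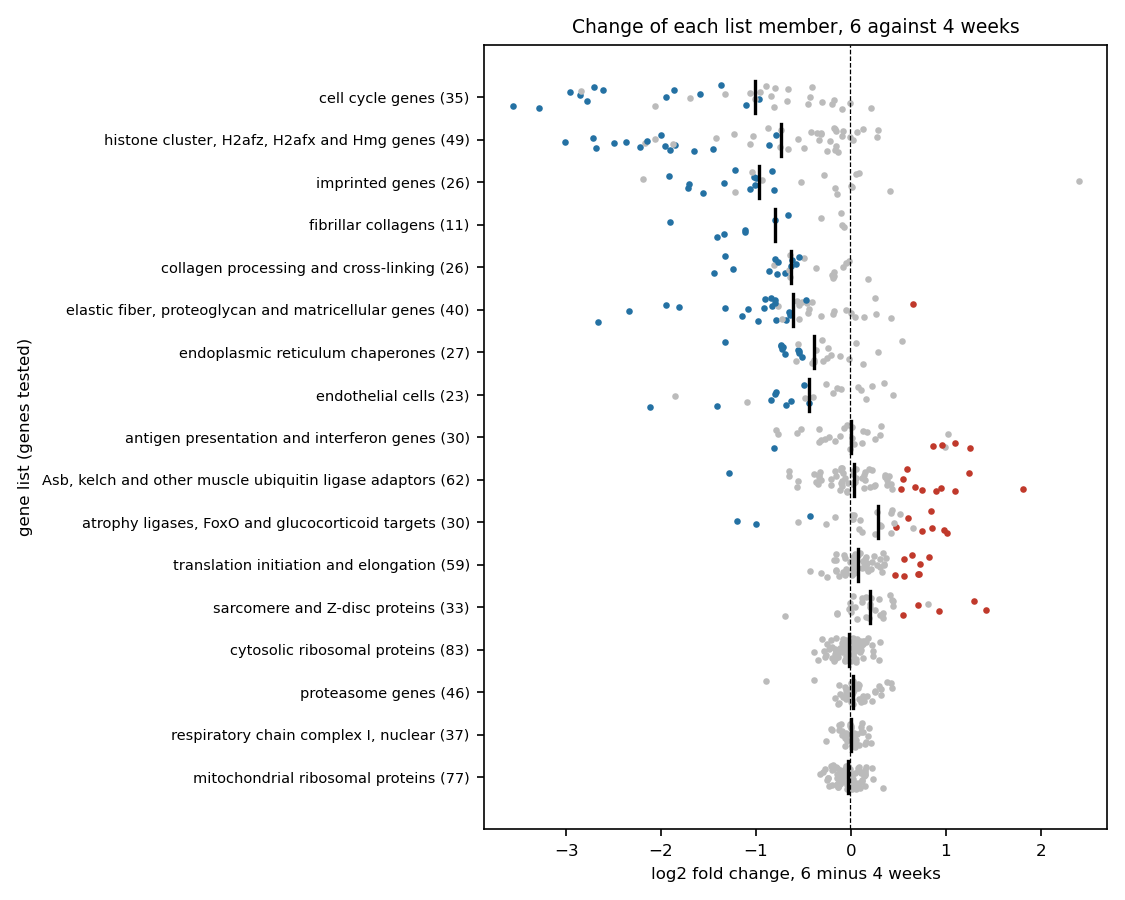
Log2 fold change (6 minus 4 weeks) of each member of 17 gene lists, with members called higher in red, called lower in blue and not called in gray, the list median as a black bar and the median of all genes tested as a dashed line. The medians of the cell cycle, histone, imprinted and matrix lists lie left of the line and those of the ribosomal, proteasome and respiratory chain lists close to it.

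The contractile apparatus changed at its developmental end and in a few adult components. Of 10 fetal and neonatal sarcomere genes 4 were lower (beside 3.76% over all genes), Actc1, Ankrd1, Myh8 and Myh3. Ankrd1, a titin-binding protein that responds to stretch, was at 5.17 and 8.37 CPM at 4 weeks and 1.52 and 2.49 CPM at 6 weeks (log2 fold change −1.74, standard error 0.26, adjusted p = 0.00708). The perinatal myosin Myh8 was at 4.56 and 4.93 CPM at 4 weeks and 3.12 and 2.65 CPM at 6 weeks (log2 fold change −0.72, standard error 0.17, adjusted p = 0.033) and the embryonic myosin Myh3 had a log2 fold change of −0.90. The 6-week libraries of Myh8 were both under the 4-week ones. No overlap between these ages, in either direction, was seen in 58.3% of all genes tested. Among 33 sarcomere and Z-disc genes 5 were higher and none lower (median 0.21), beside 3.15% higher over all genes. Mylk2, the kinase that phosphorylates the light chain of fast myosin, was at 93.8 and 99.4 CPM at 4 weeks and 199 and 169 CPM at 6 weeks (log2 fold change 0.93, standard error 0.18, adjusted p = 0.0158), and Des, desmin of the Z-disc, at 653 and 730.1 CPM at 4 weeks and 1102 and 923 CPM at 6 weeks (log2 fold change 0.55, standard error 0.15, adjusted p = 0.0466). Mylk4 and Mypn had log2 fold changes of 1.42 and 0.71. The number of this list called higher was 2 and 0 with 4 weeks replicates 1 and 2 left out in turn and 0 and 3 with 6 weeks replicates 1 and 2 left out, and of the fetal list called lower 2, 1, 1 and 2 with these libraries left out in the same order, with Actc1 in each.

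Adult fiber type genes were called at about the share of all genes, 6.90%. Of 15 fast fiber genes 1 was higher (6.67%), the phosphofructokinase Pfkm (0.48), and of 14 slow fiber genes 1 was lower (7.14%), the calsequestrin Casq2 (−0.99). Myh4 itself did not pass (0.17 on the log2 scale, adjusted p = 0.52). The myosin Myh14 was at 3.77 and 5.6 CPM at 4 weeks and 11.3 and 8.74 CPM at 6 weeks (log2 fold change 1.09, standard error 0.21, adjusted p = 0.0156), and it lost its call with an adjusted p of 0.0851 and 0.148 with 4 weeks replicate 1 and 6 weeks replicate 1 left out, in that order. Among the largest gains in CPM of called genes were those of Ryr1, the calcium release channel, at 921 and 919 CPM at 4 weeks and 2153 and 1557 CPM at 6 weeks (log2 fold change 1.01, standard error 0.19, adjusted p = 0.0155), and of Cmya5, Pde4dip and Dst. These encode a Z-disc and costamere protein, a phosphodiesterase-binding scaffold and a giant linker, and had log2 fold changes of 0.54, 0.70 and 0.69. Ryr1 lost its call with an adjusted p of 0.0706, 0.115 and 0.158 with 4 weeks replicate 1, 4 weeks replicate 2 and 6 weeks replicate 1 left out, in that order. The muscle sodium channel gene Scn4a was at 132 and 143 CPM at 4 weeks and 254 and 209.8 CPM at 6 weeks (log2 fold change 0.75, standard error 0.16, adjusted p = 0.0214) and the water channel gene Aqp4 at 83.7 and 86 CPM at 4 weeks and 34.2 and 49.1 CPM at 6 weeks (log2 fold change −1.03, standard error 0.19, adjusted p = 0.0136). At the neuromuscular junction Musk, the kinase that assembles the synapse, had a log2 fold change of 0.63, and Chrnb1, a subunit of the acetylcholine receptor, −0.62.

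Genes for the standing machinery of energy and protein synthesis did not pass edgeR's test in any member with all 7 libraries. This held for 37 nuclear genes of respiratory complex I, 27 of complexes II to IV, 17 of ATP synthase, 83 cytosolic and 77 mitochondrial ribosomal proteins and 46 proteasome genes. Their log2 fold changes ran −0.27 to 0.22 in complex I, −0.38 to 0.31 in cytosolic ribosomal proteins and −0.90 to 0.43 in the proteasome, beside 6.90% called over all genes. By edgeR's unadjusted p under 0.05 the lists had, in the order named, 0, 2, 3, 2, 3 and 8 genes. DESeq2 called 1 of the proteasome genes and none of the others, and limma-voom none. With the 4- and 6-week libraries alone edgeR called 4 proteasome genes higher and 1 cytosolic ribosomal protein lower, with a replicate block 1 of each, with no filter 2 proteasome genes, without 8 weeks replicate 2 1 proteasome gene and without 8 weeks replicate 3 1 cytosolic ribosomal protein. These were not shown to be equal at both ages, as small changes would be missed. Of 13 mitochondrially encoded mRNAs, 6 had too few counts to be tested, with 0 to 1 per library for mt-Co2 and 0 to 4 for mt-Co3. The 7 tested are thus only part of the set. They had a median of 0.36 with none called by edgeR with all 7 libraries, DESeq2 or limma-voom and 1 at an unadjusted p under 0.05. EdgeR called 1 lower with the 4- and 6-week libraries alone, with no filter, with library totals, or without 8 weeks replicate 2 or 3, and 1 higher and 1 lower with a replicate block.

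Regulators of metabolism and translation were among the genes called, which were 6.90% of all genes tested (3.15% higher, 3.76% lower). Pdp1, the phosphatase that activates pyruvate dehydrogenase, was at 51 and 48.9 CPM at 4 weeks and 90.7 and 85.2 CPM at 6 weeks (log2 fold change 0.82, standard error 0.12, adjusted p = 0.00531), and Pdk2, a kinase that inactivates it, at 62.7 and 58 CPM at 4 weeks and 114 and 82.8 CPM at 6 weeks (log2 fold change 0.71, standard error 0.15, adjusted p = 0.0216), both higher. In glycolysis and glycogen 4 of 35 genes were higher, Phkb, Pfkm and Ppp1r3a among them, and the enolase Eno1, the form of growing and non-muscle cells, was lower at 28.7 and 35.1 CPM at 4 weeks and 15.8 and 18.8 CPM at 6 weeks (log2 fold change −0.88, standard error 0.14, adjusted p = 0.00718). Srebf1, a regulator of lipid synthesis, had a log2 fold change of 1.01, and Elovl5, an elongase of polyunsaturated fatty acids, was at 14.2 and 13.9 CPM at 4 weeks and 7.46 and 7.45 CPM at 6 weeks (log2 fold change −0.91, standard error 0.12, adjusted p = 0.0038). Of 59 translation factors 8 were higher and none lower. Eef2k, the kinase that slows elongation, was at 30.3 and 29.2 CPM at 4 weeks and 48 and 49 CPM at 6 weeks (log2 fold change 0.71, standard error 0.12, adjusted p = 0.0104), Eif4ebp2, a repressor of initiation, had a log2 fold change of 0.82, and Eif4b, an initiation factor, 0.56. The list thus holds both promoters and inhibitors of translation among its rises. Its number called higher was 1 and 0 with 4 weeks replicates 1 and 2 left out in turn and 0 and 3 with 6 weeks replicates 1 and 2 left out, and that of glycolysis and glycogen 0 with any of these 4 left out. Pdp1 lost its call with an adjusted p of 0.0595 and 0.0669 with 4 weeks replicate 2 and 6 weeks replicate 1 left out, in that order, and Pdk2 with 0.0757, 0.16 and 0.212 with 4 weeks replicate 1, 4 weeks replicate 2 and 6 weeks replicate 1 left out, in that order. Amd1, which makes the donor for polyamine synthesis, was at 166 and 79.4 CPM at 4 weeks and 555 and 410.2 CPM at 6 weeks (log2 fold change 1.97, standard error 0.28, adjusted p = 0.00526) and may share reads with its pseudogenes.

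Ubiquitin ligase adaptors rose in part, beside 3.15% higher over all genes. Of 62 Asb, kelch and related genes, 10 were higher and 1 lower, while the median over the list was 0.03. Asb2, Asb5, Asb10, Asb11, Asb14, Asb15 and Asb16 of the Asb family were among them, with Klhl21, Klhl38 and Trim54. Asb2, which limits muscle mass in mice, was at 80.0 and 90.0 CPM at 4 weeks and 190.1 and 138 CPM at 6 weeks (log2 fold change 0.95, standard error 0.15, adjusted p = 0.00753), Asb11 at 38 and 30.4 CPM at 4 weeks and 63.1 and 64.3 CPM at 6 weeks (log2 fold change 0.90, standard error 0.13, adjusted p = 0.00695) and Klhl38, a kelch protein, at 5.86 and 8.18 CPM at 4 weeks and 19 and 14.4 CPM at 6 weeks (log2 fold change 1.25, standard error 0.17, adjusted p = 0.00526). Klhl4 was the one that fell (−1.28). The number called higher was 6 and 4 with 4 weeks replicates 1 and 2 left out in turn and 2 and 6 with 6 weeks replicates 1 and 2 left out. In the atrophy, FoxO and glucocorticoid list 7 of 30 were higher and 3 lower (median 0.29). Fbxo32, the atrophy ligase atrogin-1, was at 51.1 and 56.9 CPM at 4 weeks and 128 and 84.7 CPM at 6 weeks (log2 fold change 0.98, standard error 0.17, adjusted p = 0.00968), and Ddit4, an inhibitor of mTOR, at 16.4 and 17.4 CPM at 4 weeks and 27.3 and 40.9 CPM at 6 weeks (log2 fold change 1.02, standard error 0.17, adjusted p = 0.00965). Foxo3, a transcription factor that drives atrophy genes, had a log2 fold change of 0.47, and Gadd45a and the metallothionein Mt2 had −1.0 and −1.20. The number higher in this list was 0, 0, 3 and 3 with these libraries left out in the same order.

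A few regulators were higher in several lists, beside 3.15% of all genes tested, and most of these calls were lost as single libraries were left out. Of 29 mTOR pathway genes 4 were higher, among them both parts of the inhibitory complex, Tsc1 (0.49) and Tsc2 (0.78), and Mtor itself (0.48), and 1 was lower. Of 47 chromatin genes 4 were higher, including the acetyltransferases Ep300 (0.73) and Crebbp (0.54). Among 25 genes of class II deacetylases, Mef2 and calcineurin signaling 3 were higher, Hdac4 (0.58), Hdac5 (0.65) and Mef2d (0.69), and Rcan1, a calcineurin inhibitor that calcineurin activity induces, was lower (−1.04). Of the chromatin list the number higher was 0 and 0 with 4 weeks replicates 1 and 2 left out in turn and 0 and 1 with 6 weeks replicates 1 and 2 left out, and of the deacetylase list 0, 0, 0 and 3 with these libraries left out in the same order. In the mTOR list it was 0, 0, 0 and 2 with these libraries left out in the same order. Satellite cell and myogenic genes were mixed, 3 of 32 higher and 4 lower, beside 3.15% and 3.76% of all genes. Des and Mef2d were among those higher, and both also belong to other lists given above. Tmem8c, the fusion protein myomaker, was at 1.25 and 1.01 CPM at 4 weeks and 0.155 and 0.402 CPM at 6 weeks (log2 fold change −1.98, standard error 0.46, adjusted p = 0.0298), with its call lost at an adjusted p of 0.154, 0.134, 0.227 and 0.0518 with 4 weeks replicate 1, 4 weeks replicate 2, 6 weeks replicate 1 and 6 weeks replicate 2 left out, in that order.

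Clock genes rose in 4 of 23, Ciart, Per1 and Hlf among them, and fell in none (median 0.22), beside 3.15% higher over all genes. Ciart, a repressor within the clock, was at 1.91 and 1.2 CPM at 4 weeks and 3.43 and 3.59 CPM at 6 weeks (log2 fold change 1.17, standard error 0.21, adjusted p = 0.0131), and Per1, a core repressor, had a log2 fold change of 0.60. The hour of collection is not given in the sources used here and its part in this was not tested. The number called higher was 2 and 1 with 4 weeks replicates 1 and 2 left out in turn and 1 and 1 with 6 weeks replicates 1 and 2 left out. The E-box CACGTG, the letters that the Clock and Bmal1 proteins are known to bind, was in 7.15% of all promoters in the RefSeq table. The 150 bases before the Ciart start (GRCm38.p6, minus strand, in the sense of the gene), shown because they hold it 3 times, have it in capitals.
Ciart, chr3:95882229-95882378: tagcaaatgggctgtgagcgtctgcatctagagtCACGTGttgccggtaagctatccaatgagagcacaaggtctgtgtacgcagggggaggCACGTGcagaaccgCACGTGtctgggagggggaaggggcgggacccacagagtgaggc

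**Figure D5:**
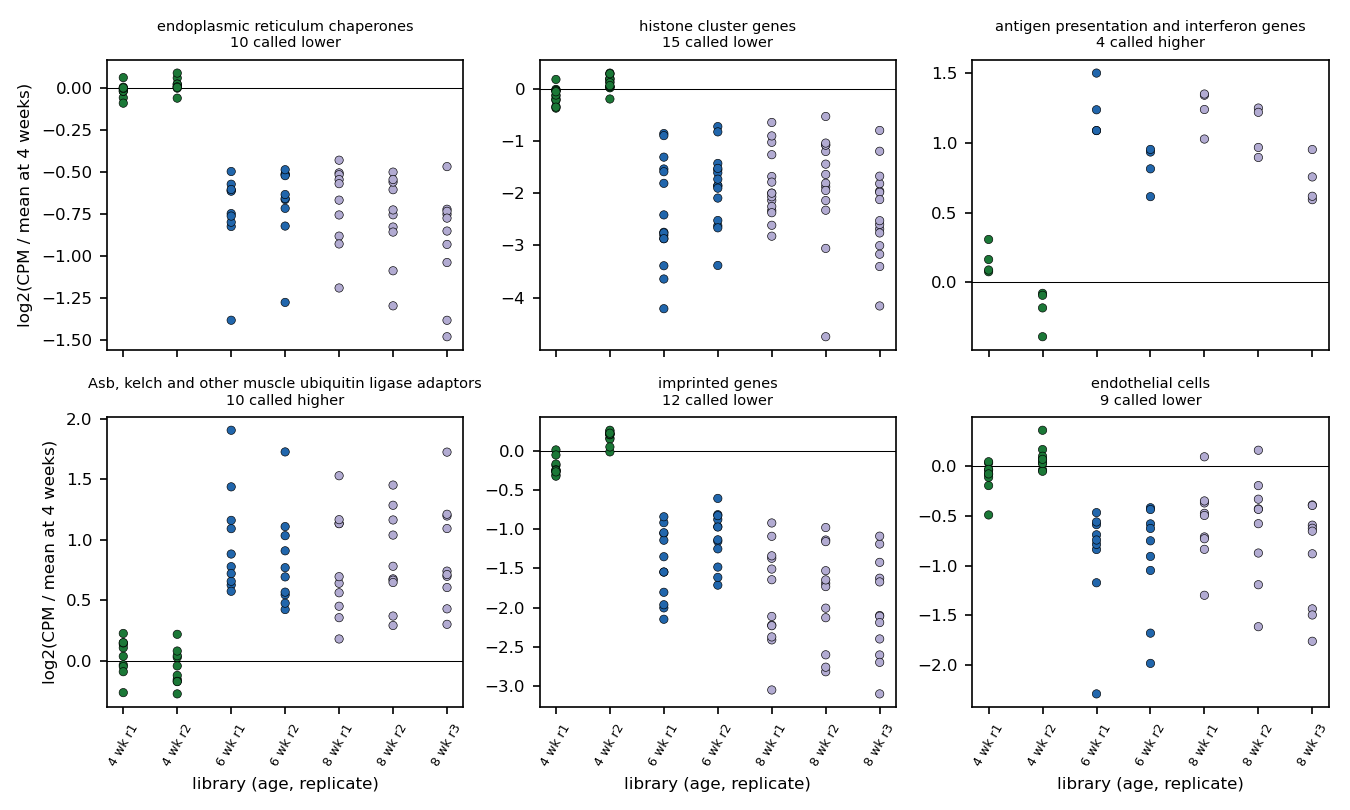
Log2 ratio of CPM to the gene's mean at 4 weeks (y axis) in each of the 7 libraries for the called members of 6 lists, 1 point per gene and library, colored by age. For each gene the 6-week points lie on the called side of its 4-week points, and 1 histone value of 0 at 8 weeks is not drawn. Of all genes tested, 58.3% had no overlap between 4 and 6 weeks.

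Few genes were called between 6 and 8 weeks. They numbered 28 (0.187%), and 11 of the 1034 genes called at 6 against 4 weeks were among them. Of the 36 genes called whichever library was left out, 1 was, Kcne1l, which encodes an accessory subunit of potassium channels. It was at 6.58 and 6.29 CPM at 4 weeks and 1.45 and 2.22 CPM at 6 weeks (log2 fold change −1.80, standard error 0.21, adjusted p = 0.00282) and at 0.377, 0.462 and 0.417 CPM at 8 weeks, a further change of −2.14 on the log2 scale (adjusted p = 0.00638). Its level was thus lower again at 8 weeks. Acta2 was at 17.9, 18.7 and 19 CPM at 8 weeks and Serpinh1 at 55.8, 51.9 and 45.7 CPM at 8 weeks, both near their 6-week levels. Asb15 was at 34.6, 32.8 and 39.6 CPM at 8 weeks. Rasd2 stood at 6.39, 7.94 and 9.59 CPM at 8 weeks, above the 6-week values, and this difference, 1.12 on the log2 scale, did not pass (adjusted p = 0.0518). Of the 36 genes, 14 had a log2 fold change after 6 weeks of the opposite sign. The 6-week libraries enter both comparisons, so the direction of the second is not independent of the first.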

How the data were processed

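The authors trimmed single-end reads of stranded, ribosomal-RNA-depleted libraries with Trimmomatic, used STAR for alignment to GRCm38, and assigned reads to exons by gene name and strand with featureCounts. The deposited raw counts per gene were used, and the authors' normalized values and comparison columns (fold changes, p-values and pathway results) were not. Multi-mapped reads, near-identical copies and shared gene names limit the counts of gene families. A total of 26 symbols had become dates (21 tested, 0.0532% of counts) and are not named.

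Tests used edgeR 4.0.16 (R 4.3.3). The filter filterByExpr (minimum count 10) kept 14976 of 49568 genes. TMM scaling was followed by quasi-likelihood F tests from a single fit of all 7 libraries that has 1 mean per age and 4 residual degrees of freedom, with Benjamini-Hochberg adjustment over all genes tested and a threshold of 0.05. DESeq2 (here 1.42.0), which the study used, and limma-voom (limma 3.58.1) were alternatives. Standard errors are |log2 fold change| over the root of the F statistic. Precision rests on n = 2 per age and 31448537 to 36061407 counts per library. The code was tested on simulated data. Gene positions are from GENCODE M21, which held 14568 of the symbols tested. Figures were drawn with matplotlib 3.10.9.

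The 57 gene lists and the members were chosen with earlier results of these data known. Genes were named by a rule: up to 20 rises and 20 falls, of at least 1 CPM and without overlap, called whichever 4- or 6-week library was left out; the 5 largest gains and losses of CPM among called genes; up to 4 higher and 4 lower per list with the smallest p and its defining markers; all members of lists of up to 15 genes; and the 5 genes with most counts. Genes named outside it were chosen after their values were seen (Asb2, Asb5, Asb14, Asb16, Cdh5, Cdk1, Cd4, Ciita, Ckm, Eln, Fbn1, Fbn2, Fkbp10, Foxo3, Hist1h1b, Hsp90b1, Hspa5, H2afz, H2afx, Hmgb1, Hmgb2, Hmgn2, Ighm, Kdr, Klhl21, Mirg, Pdia4, RP24-246F6.2, Tpm4 and Trim54). Some genes the rule names are not reported here. The alternatives were other scaling, other tests and filters, fewer libraries, a replicate block, a stricter threshold and each library left out.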

Additional observations from a re-analysis of the deposited data

How the results depend on the processing

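Among other settings, library totals in place of TMM factors gave 530 genes called (215 higher, 315 lower), the 4-week and 6-week libraries alone 1826 (913 higher, 913 lower), an adjusted p under 0.01 146 (53 higher, 93 lower), and no filter on low counts 1497 (773 higher, 724 lower). DESeq2's Wald test called 1151 genes, 638 higher and 513 lower. The causes were not tested. As each of the 7 libraries was left out, the number called ran from 50 to 1584, the number higher from 20 to 793 and the number lower from 30 to 791. Leaving out 4 weeks replicate 2 or 6 weeks replicate 1 cost the most calls, and leaving out 8 weeks replicate 3 added the most. The samples share replicate numbers, but no source says that a number pairs them, and with 2 pairs the correlation of deviations from the age means was 0.0428. With the replicate number as a block 1530 genes were called (772 higher, 758 lower), 1021 of them shared with the 1034. The set of 36 genes called whichever library was left out was 32 with DESeq2 size factors, and 36 also with each 8-week library left out. No gene named by the rule changed direction in a called result under these settings. This was not examined for all genes named outside the rule. With 2 libraries per age, a gene that did not pass is not shown to be equal at both ages.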

Other observations

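Some large differences between the ages came from 1 library and did not pass the test. These genes were chosen after their values were seen. The noncoding Gm42418 was at 315 and 5930.3 CPM at 4 weeks and 264 and 216 CPM at 6 weeks and at 1822, 273 and 216 CPM at 8 weeks (log2 fold change −3.70, adjusted p = 0.0863 by edgeR). Lars2, a mitochondrial leucyl-tRNA synthetase gene, was at 12.2 and 188 CPM at 4 weeks and 18 and 11.8 CPM at 6 weeks and at 95.9, 15.4 and 18.9 CPM at 8 weeks, and Mir6236 at 3.24 and 124 CPM at 4 weeks and 3.81 and 1.82 CPM at 6 weeks and at 63.7, 5.14 and 3.66 CPM at 8 weeks. Gm15564 was at 0.822 and 38.4 CPM at 4 weeks and 0.897 and 0.59 CPM at 6 weeks and at 17, 0.339 and 1.03 CPM at 8 weeks. In all 4 genes the highest library was 4 weeks replicate 2 and the next 8 weeks replicate 1, so the high values did not follow age.

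Cish, a feedback inhibitor that cytokine and growth hormone signals induce, was at 25.3 and 1.97 CPM at 4 weeks and 3.71 and 2.2 CPM at 6 weeks and at 2.26, 9.64 and 3.79 CPM at 8 weeks. Socs3, another feedback inhibitor of cytokine receptors, was at 15.7 and 3.73 CPM at 4 weeks and 3.71 and 3.72 CPM at 6 weeks and at 1.86, 3.17 and 1.67 CPM at 8 weeks, and the transcriptional coregulator Cited2 at 39.7 and 11.9 CPM at 4 weeks and 11 and 9.7 CPM at 6 weeks. Each was highest in 4 weeks replicate 1, and none passed by edgeR (adjusted p = 0.158, 0.115 and 0.0696).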
